A study of Mus musculus with 12 samples.

Results

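Voltage-gated calcium channels open when the membrane of a neuron is depolarized, and the calcium that enters triggers transmitter release, shapes firing and reaches the nucleus. Each high-voltage-activated channel is built from a pore-forming α1 subunit, an α2δ subunit anchored outside the membrane and an intracellular β subunit, whereas T-type α1 subunits can form channels alone. In sensory neurons N-type channels, whose pore is encoded by Cacna1b, carry much of the calcium that releases transmitter at central terminals, and the α2δ protein encoded by Cacna2d1 is the binding site of the analgesics gabapentin and pregabalin.

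RNA levels of 10 such genes were examined in lingual trigeminal ganglion (TG) neurons. They were listed by gene symbol from the 22609 gene rows of the count data, with earlier results of these data known. There were 5 pore-forming genes (Cacna1a, Cacna1b, Cacna1c, Cacna1e and Cacna1h). The others were 3 α2δ genes (Cacna2d1, Cacna2d2 and Cacna2d3) and 2 β genes (Cacnb3 and Cacnb4). In the GENCODE M1 annotation (NCBIM37, equal to mm9) the pore-forming genes lie at chr8:86912339-87164145 (Cacna1a, plus strand), chr2:24459407-24618672 (Cacna1b, minus), chr6:118542314-119146249 (Cacna1c, minus), chr1:156239649-156573049 (Cacna1e, minus) and chr17:25511230-25570728 (Cacna1h, minus). The α2δ genes lie at chr5:15440509-15880329 (Cacna2d1, plus), chr9:107301943-107431677 (Cacna2d2, plus) and chr14:29718133-30535050 (Cacna2d3, minus), and the β genes at chr15:98462651-98474961 (Cacnb3, plus) and chr2:52283845-52532350 (Cacnb4, minus). All 10 passed the filter on low counts. The gene family has a further 16 genes in the data, of which 8 passed.

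Mice of both sexes were Balb/c athymic nude animals, hosts that lack T cells, and were used as adults; no other genetic change is given. The tumor groups MT (male) and FT (female) were inoculated in the tongue with 350000 HSC3 cells. HSC3 is a cell line from a human oral squamous cell carcinoma, so a single line stands for oral cancer here. The normal groups MN and FN received no cells according to the sample labels, whereas the methods of the study describe an injection of human oral keratinocytes, and this was not settled. In all 4 groups the tongue was injected on day 13 with WGA, a lectin that is taken up at nerve endings and transported back to the soma. On day 15 WGA-positive cells were sorted from pooled ganglia. Each of the 3 samples of a group held 4 TGs, from 2 mice in the normal groups and, with only the ipsilateral ganglion taken, from 4 mice in the tumor groups. The concentration of WGA is given as 0.5% in the labels and differently in the methods. All 16 markers of sensory neurons that were checked had reads in these libraries, and every marker of the other lists used here had over 3 reads in at least 1 library.

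Libraries held 4592891 to 8922011 reads counted on genes. FN replicate 2, FT replicate 2 and FT replicate 3 stood apart from the other 9: 56.0%, 68.4% and 52.6% of their reads mapped to several places, against 43.0% to 45.5% in the 9. On the first principal component of log2 CPM these 3 libraries lay between 55.02 and 125.27, and the other 9 between -37.82 and -24.71. The group FT thus has a single library, replicate 1, that resembles the rest. The cause was not tested, and the members' results are given with these 3 libraries and without them. Markers of other cells also moved with sex and with these libraries. The summed level of 8 satellite glia genes was 4117 to 5500 CPM in the 6 male libraries, 6975 to 8644 CPM in FN replicates 1 and 3 and FT replicate 1, and 11810 to 18730 CPM in the 3 libraries that stood apart. That of 12 macrophage genes was 9.81 to 26.57 CPM in 5 male libraries, 157.2 CPM in MT replicate 3 and 118.2 to 282.2 CPM in the females. Single macrophage genes did not all follow their sum. In FN replicate 2 C1qa was at 25.7 CPM, against 1.681 to 3.796 CPM in MN, but Csf1r was at 1.957 CPM, against 2.295 to 6.608 CPM. In FT replicate 2 Tyrobp was at 57.92 CPM but Csf1r at 6.314 CPM. The sum of 16 sensory neuron genes ran from 18440 CPM in FT replicate 2 to 31350 CPM in FN replicate 2. This sum hid opposite moves of single neuron genes. In FN replicate 2 Calca was at 11270 CPM, against 3295 to 4589 CPM in the 9. Trpv1 was at 11.35, 5.443 and 35.14 CPM in FN replicate 2 and FT replicates 2 and 3, against 150.2 to 262.8 CPM in the 9. Scn10a was at 235.5, 336.6 and 373.1 CPM, against 696.5 to 1163 CPM. In such bulk samples, fewer cells that express a gene and less of its RNA per cell cannot be told apart.

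The 5 pore-forming members are one gene family that selects calcium by acidic residues, one in the pore loop of each of 4 repeats. The coding sequences around these residues are shown because they are what the genes share and where the T-type gene Cacna1h departs from the others. They are reference sequence of the GENCODE mouse release M1 transcripts (build NCBIM37, equal to mm9), 36 bases each, written 5′ to 3′ on the coding strand, with the codon of the acidic residue in capitals. In repeat 1 the codon encodes glutamate in all 5 genes, and the loops lie at chr8:87047064-87047099 (plus strand), chr2:24586200-24586235, chr6:118701396-118701431 and chr1:156480693-156480728 (minus strand) for the first 4 genes, each within 1 coding exon, and are spliced from 2 exons in Cacna1h.
Cacna1a repeat 1: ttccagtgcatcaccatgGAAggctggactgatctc
Cacna1b repeat 1: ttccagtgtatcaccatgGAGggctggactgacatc
Cacna1c repeat 1: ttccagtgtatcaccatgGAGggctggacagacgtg
Cacna1e repeat 1: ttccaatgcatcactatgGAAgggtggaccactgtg
Cacna1h repeat 1: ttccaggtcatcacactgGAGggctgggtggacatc

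In repeat 3 the codon encodes glutamate in the 4 high-voltage-activated genes and aspartate in Cacna1h, where the loop lies at chr17:25520438-25520473 (minus strand) within 1 exon. The loops of the other 4 genes are spliced from 2 exons.
Cacna1a repeat 3: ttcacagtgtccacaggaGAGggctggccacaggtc
Cacna1b repeat 3: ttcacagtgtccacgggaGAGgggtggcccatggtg
Cacna1c repeat 3: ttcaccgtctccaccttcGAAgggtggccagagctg
Cacna1e repeat 3: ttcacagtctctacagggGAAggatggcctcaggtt
Cacna1h repeat 3: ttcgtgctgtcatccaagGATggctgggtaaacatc

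Repeat 2 encoded glutamate in all 5 genes, and repeat 4 encoded glutamate in 4 genes and aspartate in Cacna1h. In repeat 1, Cacna1b differed from Cacna1c at 3 of the 36 bases and from Cacna1a at 4, and in repeat 3 Cacna1h differed from the others at 16 to 19. Over the whole protein-coding transcripts, 0 words of 50 bases were shared with another gene in 7 of the 10 members, and the shared portion was 0.117% in Cacna2d2, 0.127% in Cacnb4 and 1.14% in Cacna1h, the last with Cacna1i and with Tpsg1, whose exons overlap those of Cacna1h by 158 bases on the opposite strand.

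Levels were compared between genes as RPKM, a library's reads counted on genes being scaled to a common total and each gene's count divided by its exon length in kilobases. Cacnb3, a β subunit gene of neurons and smooth muscle, had the highest level of the 10, with a median of 110.8 RPKM over the 9 libraries. Cacnb4, the other β member, followed at 19.04 RPKM and Cacna2d1 at 16.75 RPKM. A middle group held Cacna2d3 at 4.904, Cacna1b at 4.795 and Cacna2d2 at 4.686 RPKM, and the pore genes Cacna1h, Cacna1a, Cacna1c and Cacna1e came last at 2.214, 1.146, 0.8517 and 0.7228 RPKM. Ranges over the 9 libraries did not overlap between Cacnb3 and Cacnb4, Cacna2d1 and Cacna2d3, Cacna2d2 and Cacna1h, or Cacna1h and Cacna1a, whereas the other 5 pairs of neighbours in this order overlapped and were not separated. Cacnb3 was above Cacnb4 in 12 of 12 libraries, and Cacna1b was above Cacna2d2 in only 6 of 12. The genes with low levels rest on few reads, with 22 to 194 reads per library for Cacna1e and 30 to 90 for Cacna1c, against 786 to 3137 for Cacnb3.

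**Figure D1:**
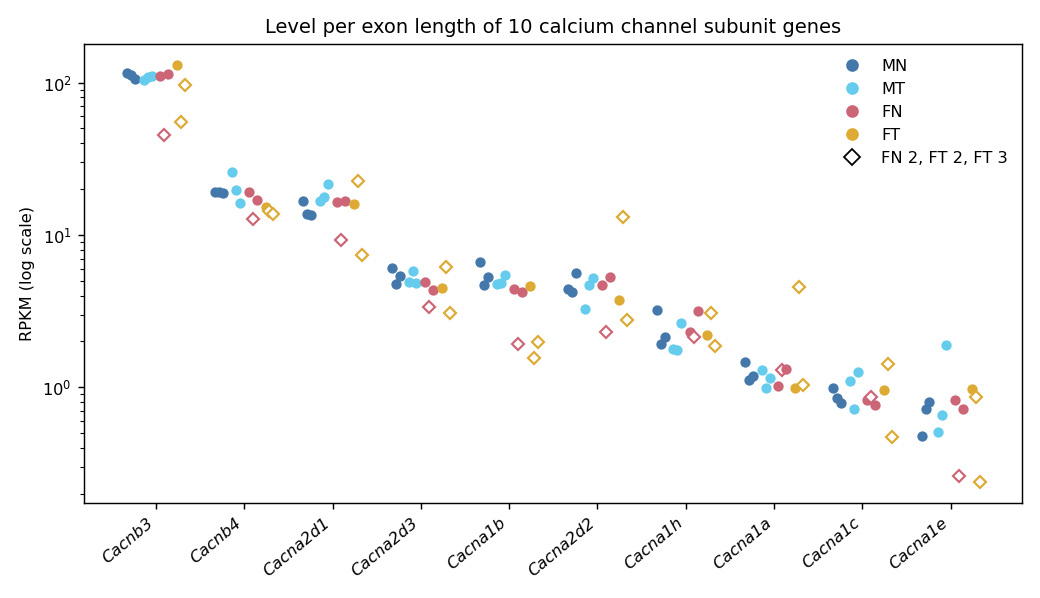
RPKM on a log axis (vertical) of the 10 genes (horizontal, ordered by their median over 9 libraries), 1 point per library coloured by group, with FN replicate 2, FT replicate 2 and FT replicate 3 as open diamonds. Cacnb3 sat above every other gene in each library, and the open diamonds lay outside the filled points for most genes, above them for Cacna1a and Cacna2d2 in FT replicate 2.

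Among the pore-forming genes, Cacna1b made up 39.81% to 52.43% of the summed RPKM of all 10 Cacna1 genes in the 9 libraries, and Cacna1h, the T-type gene, was second with 18.06% to 29.54%. Cacna2d1 made up 55.09% to 68.44% of the α2δ genes and Cacnb3 77.01% to 85.13% of the β genes, with 9.995% to 19.23% for Cacnb4. Among the pore-forming genes the libraries that stood apart differed from the 9. Cacna1b held 28.65%, 12.34% and 32.6% of them in FN replicate 2, FT replicate 2 and FT replicate 3, in that order, while Cacna1a stood at 19.48%, 36.16% and 16.79% against 8.824% to 13.14% in the 9. Cacna1h stood at 31.89%, 24.36% and 30.78% in the same order, above Cacna1b in FN replicate 2 and FT replicate 2. As a ratio of RPKM, Cacna1b to Cacna1a was 3.25 to 4.93 in the 9 libraries and 1.47, 0.341 and 1.94 in these 3, so the order of the N-type gene over the P/Q-type gene turned round in FT replicate 2 alone. The β genes kept their order in those libraries, with Cacnb3 at 75.07%, 78.18% and 85.63%. As group means, the share of Cacna1b was 49.8% ± 0.49 in MN, 47.6% ± 5.28 in MT, 37.5% ± 7.94 in FN and 30.1% ± 16.7 in FT (SD, n = 3 each). That of Cacna2d1 was 58.9% ± 3.37, 66.1% ± 2.96, 62.9% ± 0.68 and 58.6% ± 6.57, and that of Cacnb3 81.2% ± 1.05, 79.9% ± 2.67, 80.0% ± 4.31 and 83.0% ± 4.17, in the same order. Without the 3 libraries that stood apart, the mean over the other 2 FN libraries was 41.9% for Cacna1b, 63.3% for Cacna2d1 and 82.5% for Cacnb3, and the 1 FT library left was at 45.4%, 66.1% and 85.1%.

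**Figure D2:**
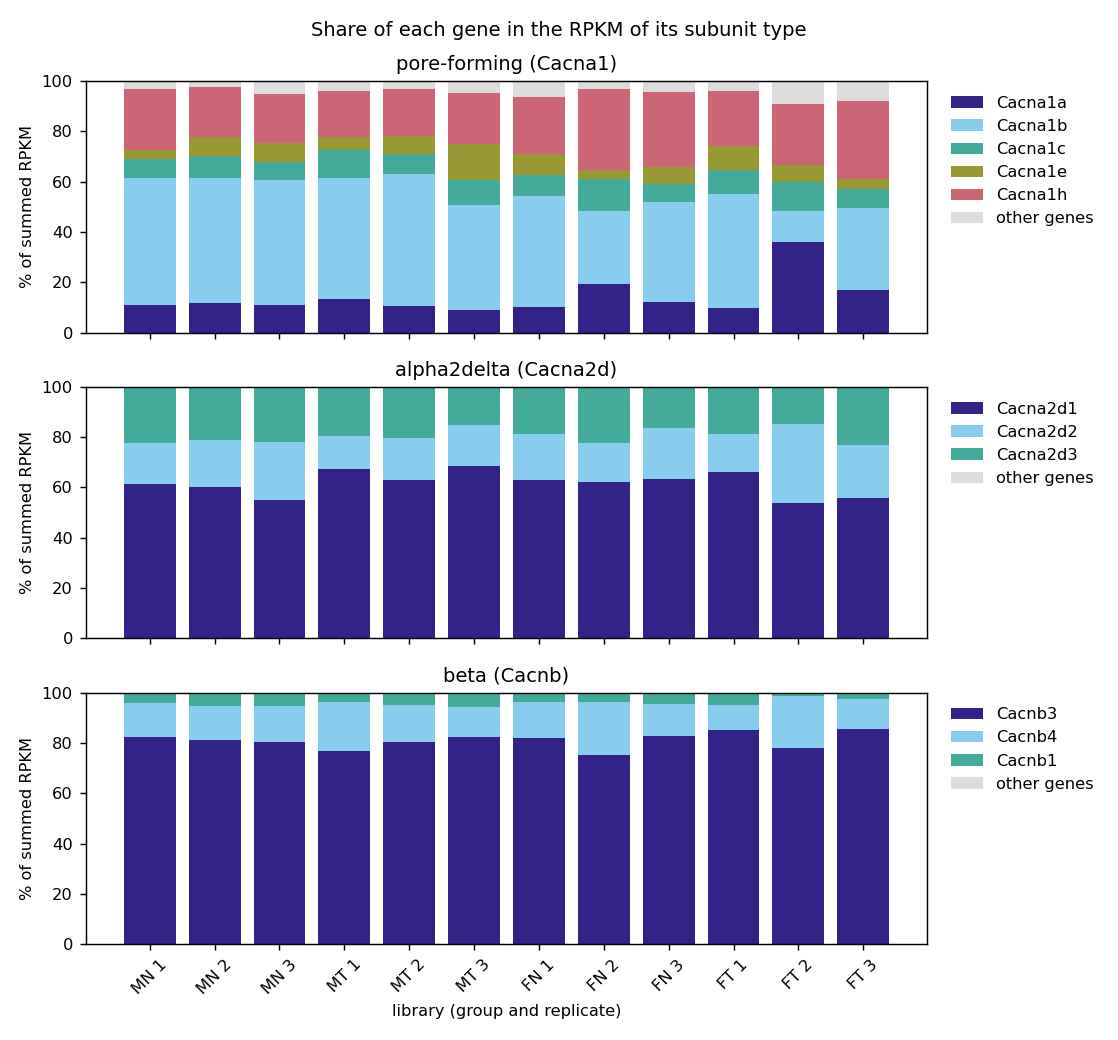
Share of each gene in the summed RPKM of its subunit type (vertical, %) for each of the 12 libraries (horizontal), as stacked bars for pore-forming, α2δ and β genes. Cacna1b held 39.81% to 52.43% of the pore-forming RPKM in 9 libraries but 12.34% in FT replicate 2, where Cacna1a held 36.16%, whereas Cacnb3 held 75.07% to 85.63% of the β RPKM throughout.

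Cacna1b encodes the pore of N-type channels. It lay at 66.2, 46.9 and 53.0 CPM in MN replicates 1 to 3 and at 47.7, 48.4 and 54.2 CPM in the 3 MT replicates. In FN it was at 43.6, 19.1 and 42.2 CPM, and in FT at 45.8, 15.5 and 19.8 CPM. Every FN library was thus below every MN library, and every FT library below every MT library, also among those that did not stand apart. Of all 13360 genes tested outside X and Y, 19.8% had no overlap in FN versus MN and 17.6% in FT versus MT. Cacna1a, the P/Q-type pore gene, was at 16.7, 12.8 and 13.5 CPM in MN and at 14.8, 11.3 and 13.1 CPM in MT. It was at 11.7, 14.9 and 14.9 CPM in FN and at 11.3, 52.0 and 11.7 CPM in FT. All 4 groups overlapped, and only FT replicate 2 was far from the others, at 3.98 times the median of the 9 libraries.

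Cacna1h, the T-type pore gene, ranged from 17.1 to 31.5 CPM over all 12 libraries, with group means of 23.7 ± 6.84 CPM in MN, 20.1 ± 4.92 CPM in MT, 24.7 ± 5.36 CPM in FN and 23.4 ± 6.0 CPM in FT (SD, n = 3 each). It was the member that stayed inside the range of the 9 libraries in each of the 3 that stood apart. Cacna1c, the L-type pore gene that smooth muscle also uses, ranged from 6.39 to 11.1 CPM in the 9 libraries and lay outside this range in FT replicates 2 and 3, at 12.6 and 4.18 CPM. The summed level of 12 smooth muscle and pericyte genes was 179.2 and 387.6 CPM in those 2 libraries and 123.5 to 394.6 CPM over all 12. Cacna1e, the R-type pore gene, was the least steady, at 6.05 to 12.4 CPM in 8 of the 9 libraries and 24.0 CPM in MT replicate 3. Among the males that library also had the highest macrophage sum, at 157.2 CPM. Its smooth muscle, myelinating Schwann and endothelial sums were the highest of the males too. The female libraries had macrophage sums of 118.2 to 282.2 CPM, with Cacna1e at 3.07 to 12.4 CPM. The part of those other cells in the result was not tested.

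Cacna2d1 encodes the α2δ subunit that raises the number of channels at the membrane. It was at 140.9, 114.8 and 113.1 CPM in MN and at 140.5, 148.9 and 182.4 CPM in MT. It was at 137.1, 78.3 and 141.2 CPM in FN and at 134.4, 189.0 and 62.1 CPM in FT. The male groups met at about the same value in MN replicate 1 and MT replicate 1 and were otherwise apart, and the highest and the lowest of the 12 values were both in FT. Cacna2d2 lay between 19.8 and 33.7 CPM in the 9 libraries. In FN replicate 2 and FT replicate 3 it was lower, at 14.0 and 16.7 CPM, and in FT replicate 2 it was at 79.5 CPM, 2.81 times the median of the 9. Cacna2d3 was the steadiest of the α2δ genes, from 16.0 to 22.4 CPM in the 9 libraries and from 11.3 to 22.6 CPM in the other 3.

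The β subunit genes, whose products bring the pore to the membrane and set its gating, had the highest counts. Cacnb3 was at 363, 352 and 329 CPM in MN and at 325, 337 and 346 CPM in MT. It was at 344, 142 and 353 CPM in FN and at 408, 171 and 302 CPM in FT. Over the 9 libraries it varied little, with a coefficient of variation of 7.01%, the lowest of the 10 members. The members' median coefficient was 15.4%, against 16.4% for all 13835 genes tested and 14.0% for the 11122 of them with 5 CPM or more on average, and the highest was 50.2% in Cacna1e. Cacnb4 was at 171, 170 and 169 CPM in MN, at 232, 177 and 144 CPM in MT, at 171, 114 and 152 CPM in FN and at 137, 129 and 122 CPM in FT. Every FT library was below every MT library, while FT overlapped FN. Of all genes tested outside X and Y, 17.6% had no overlap between FT and MT.

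**Figure D3:**
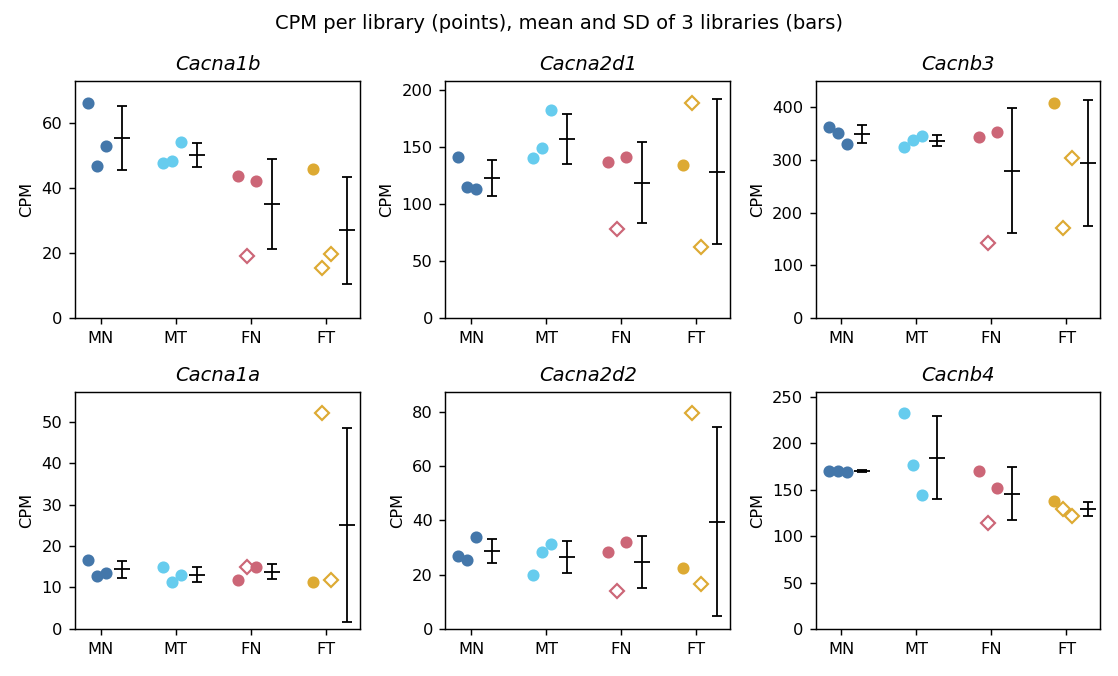
CPM (vertical, from 0) of 6 members in the 4 groups (horizontal), 1 point per library, with the mean and SD of the 3 libraries as bars and the 3 libraries that stood apart as open diamonds. For Cacna1b all female points lay below all male points of the same condition, for Cacna2d1 all MN points but 1 lay below the MT points, and the wide bars of Cacna1a and Cacna2d2 in FT came from FT replicate 2. Of all genes tested outside X and Y, 19.8% had no overlap in FN versus MN and 17.6% in FT versus MT.

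The members lay on different sides of the other values in the libraries that stood apart. In FN replicate 2, 7 of the 10 were below the range of the 9 libraries and 0 above it. In FT replicate 3, 8 were below and 0 above. In FT replicate 2, Cacna1a, Cacna1c, Cacna2d1, Cacna2d2 and Cacna2d3 were above and Cacna1b, Cacnb3 and Cacnb4 below. Over all 13835 genes tested, 28.0% were above and 49.9% below in FN replicate 2, 30.1% and 41.2% in FT replicate 3, and 26.4% and 53.1% in FT replicate 2. Being outside the range was thus common to most genes of these libraries. Cacna1b was below the range in all 3, at 0.4, 0.324 and 0.415 times the median of the 9 in the order FN replicate 2 and FT replicates 2 and 3, as were Cacnb3 at 0.412, 0.495 and 0.874 times and Cacnb4 at 0.673, 0.759 and 0.716 times.

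**Figure D4:**
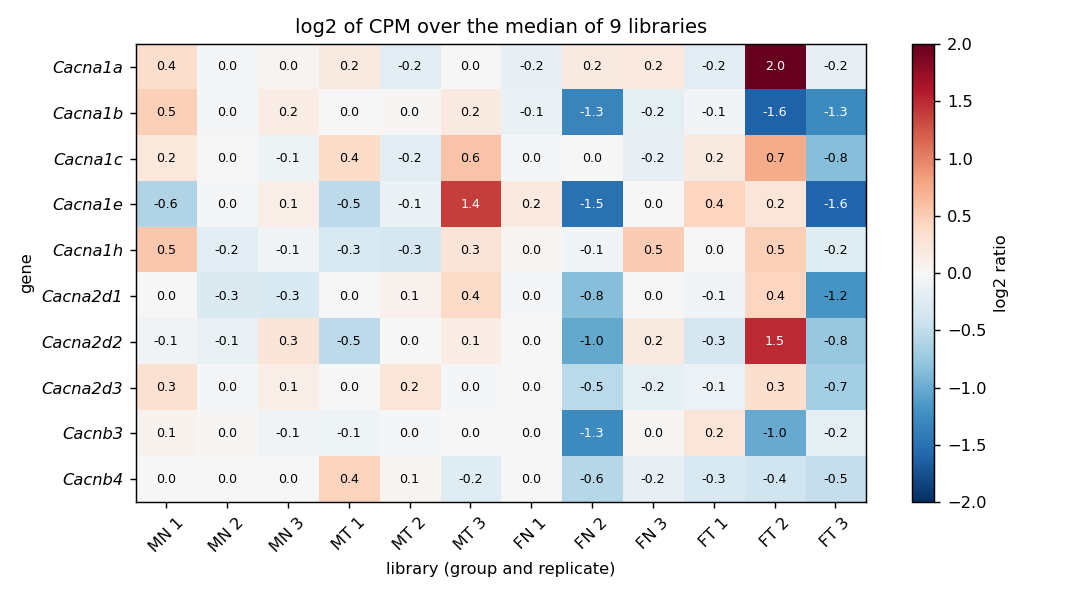
Log2 of the CPM of each of the 10 genes (rows) in each of the 12 libraries (columns) over the median CPM of that gene in the 9 libraries, blue below and red above, with the value written in each cell. The 3 libraries that stood apart carried the strong colours, apart from Cacna1e in MT replicate 3, mostly blue in FN replicate 2 and FT replicate 3 and of both colours in FT replicate 2, from -1.62 for Cacna1b to 1.99 for Cacna1a.

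The comparison FN versus MN asks how lingual TG neurons of the sexes differ without a tumor. Cacna1b was the member with the smallest p. Its level was lower in FN by 0.61 on the log2 scale (SE 0.37), a difference that edgeR's quasi-likelihood test over the 12 libraries did not call (unadjusted p = 0.115, Benjamini-Hochberg adjusted p = 0.809). It was 1 of 10 members whose FN and MN libraries did not overlap, as did 19.8% of the 13360 genes tested, genes of X and Y left out. Over the 9 libraries the difference was -0.42 (SE 0.15), with an unadjusted p of 0.0151 and an adjusted p of 0.209 in edgeR. Satellite glia sums separated the same groups, at 4701 to 5500 CPM in MN and 8553 to 17350 CPM in FN, and their part in the lower Cacna1b was not tested. Cacnb3 had a log2 difference of -0.27 (SE 0.34, adjusted p = 0.832 in edgeR), which came from FN replicate 2, since it was -0.04 without that library. At an adjusted p under 0.05 edgeR called 0 members and 0.0% of all genes, and at an unadjusted p under 0.05 it had 0 members and 5.57% of all genes. DESeq2 called 20 genes and limma-voom with sample quality weights 800, no member among them. The members' median log2 difference was -0.12, with 4 positive and 6 negative, against 0.07 over all genes tested.

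MT versus MN asks what a tongue tumor changes in males, in 6 libraries of which none stood apart. Cacna2d1 had a log2 difference of 0.37 (SE 0.41, unadjusted p = 0.383, adjusted p = 1.0 in edgeR) in the fit of 12 libraries. The difference hardly moved, at 0.37 (SE 0.12), when edgeR was fitted to the 6 male libraries alone, where the unadjusted p was 0.0111 and the adjusted p 0.556, and it was 0.28 to 0.48 when any 1 of the 12 libraries was left out. In that male fit 1 of the 10 members, Cacna2d1, had an unadjusted p under 0.05, against 6.91% of the 13322 genes tested, and 0 members were called, against 0.045% or 6 genes. The summed level of 14 axon injury genes was also higher in MT, at 1472 to 1625 CPM against 983 to 1116 CPM in MN, and whether it bears on Cacna2d1 was not tested. Cacna1e had a log2 difference of 0.61 (SE 0.59, adjusted p = 1.0 in edgeR) that turned to -0.15 without MT replicate 3. Over the 12 libraries edgeR called 0 members and 0.0% of 13835 genes, with 0 members and 0.426% of genes at an unadjusted p under 0.05, and no member had groups without overlap, against 13.1% of genes. DESeq2 called 2 genes and limma-voom 47, no member among them. The median log2 difference of the members was -0.04, against 0.01 over all genes.

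FT versus FN asks the same in females, where 3 of the 6 libraries stood apart. Cacna1a and Cacna2d2 had the largest log2 differences, 1.05 (SE 0.58, unadjusted p = 0.0918) and 0.93 (SE 0.55, unadjusted p = 0.114), each with an adjusted p of 0.994 in edgeR. Both rested on FT replicate 2: without it the values were -0.34 and -0.36, and over the 9 libraries, where FT is replicate 1 alone, -0.23 (SE 0.30) and -0.42 (SE 0.26). Cacna1b was lower in FT by 0.31 over the 12 libraries (SE 0.37, adjusted p = 0.994 in edgeR) and stood at 0.10 (SE 0.20) over the 9. No member had an unadjusted p under 0.05, against 3.81% of genes, none had groups without overlap, against 2.49% of genes, and edgeR called 0 members and 0.0% of genes. DESeq2 and limma-voom also called 0 genes. The members' median log2 difference was 0.27, with 8 positive and 2 negative, against -0.06 over all genes, and it includes the genes that were high in FT replicate 2.

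FT versus MT asks how tumor-bearing mice of the sexes differ. Here Cacna1b was lower in FT by 0.80 on the log2 scale (SE 0.37, unadjusted p = 0.0484, adjusted p = 0.412 in edgeR). It was the 1 member of 10 with an unadjusted p under 0.05, against 12.0% of 13360 genes, and it was not called. Over the 9 libraries, where FT is a single library assumed to vary like the other groups, the difference was -0.19 (SE 0.19, adjusted p = 0.834 in edgeR). Without FT replicate 1, which leaves FT to the 2 libraries that stood apart, it was -1.26 (adjusted p = 0.0569 in edgeR), the closest that any member came to the threshold in any fit. Cacnb4 was lower by 0.35 (SE 0.31, adjusted p = 0.596 in edgeR) and by 0.50 (SE 0.23, adjusted p = 0.614) over the 9 libraries, again with 1 FT library. These were the 2 members of 10 whose groups did not overlap, against 17.6% of genes. Cacna1a and Cacna2d2 had log2 differences of 1.23 (SE 0.58, adjusted p = 0.417) and 0.87 (SE 0.55, adjusted p = 0.482) in edgeR, which became -0.17 and -0.42 without FT replicate 2. Cacna2d1, at -0.07 (SE 0.41, adjusted p = 0.951 in edgeR), went to -0.68 without FT replicate 2 and to 0.28 without FT replicate 3. Over the 12 libraries edgeR called 0 members and 0.0% of genes, while DESeq2 called 249 genes and limma-voom 0, no member among them. Satellite glia sums were 6975 to 18730 CPM in FT and 4117 to 5246 CPM in MT, and their part was not tested.

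Whether the tumor effect differed between the sexes was tested directly, as the change from FN to FT minus the change from MN to MT. The largest values were 1.16 for Cacna1a (SE 0.82, unadjusted p = 0.175) and 1.04 for Cacna2d2 (SE 0.78, unadjusted p = 0.205), each with an adjusted p of 1.0 in edgeR, and both reversed without FT replicate 2, to -0.23 and -0.25. Of the members 0 were called, as were 0.0% of all genes by edgeR and 0 genes by DESeq2 or limma-voom, and 0 had an unadjusted p under 0.05, against 1.47% of genes.

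The other genes of the family were mostly near the limit of detection. Cacnb1, a β subunit gene best known from skeletal muscle, was the highest of the other α1, α2δ and β genes, at 22.5 to 34.6 CPM in the 9 libraries and 3.70% to 5.67% of the β RPKM, and in the 3 that stood apart it was at 10.3, 3.92 and 11.6 CPM. Cacng5, Cacng2, Cacng3, Cacng4 and Cacng7 belong to the γ family, several of whose products traffic AMPA receptors. Cacng5 was at 26.2 to 58.2 CPM, with 58.2 CPM in MT replicates 1 and 2 and 33.3 CPM in MT replicate 3. Cacng2 was at 2.95 to 14.6 CPM, the highest in FT replicate 2, and Cacng3 at 2.88 to 6.89 CPM except for 0 reads in FT replicate 2, while Cacng4 did not exceed 1.65 CPM. Cacng7 was at 0.84, 2.02 and 0.57 CPM in MN and 1.89, 1.25 and 0.86 CPM in MT. It was at 0.13, 0.91 and 1.23 CPM in FN and 1.51, 2.61 and 1.25 CPM in FT. FT was thus above FN throughout, as were or lay below 2.49% of all genes tested without overlap. These levels rest on 1, 7 and 9 reads in FN and 11, 12 and 9 in FT, so replicate 3 of each group had equal reads. The log2 difference was 1.30 (SE 0.80, adjusted p = 0.994 in edgeR), and 1.17 (SE 1.08) over the 9 libraries. Among the pore genes, the L-type gene Cacna1d was at 1.57 to 3.39 CPM except for 8.71 CPM in FT replicate 2, and the T-type gene Cacna1i at 0.11 to 2.35 CPM. Cacna1d shares 518 exon bases with overlapping genes on the opposite strand, and the counting is not stated to use strand. Cacna1f, Cacna1g, Cacna1s, Cacna2d4, Cacnb2, Cacng1 and Cacng8 stayed at 1.09 CPM or less in all libraries and Cacng6 had 0 reads, and these 8 were not tested. Of the 8 that were tested, 0 were called in any comparison, against 0.0% of all genes, and 0 had an unadjusted p under 0.05, against 0.426% to 12.0% of all genes.

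Genes that regulate the channels or act next to them were described from lists of 17 channel regulators, 16 vesicle release genes and 23 calcium handling genes, of which 13, 16 and 22 were tested (21 of the last between the sexes). At an adjusted p under 0.05 edgeR called 0 of them in each of the 4 comparisons. It also called 0 in the difference between the sexes in the tumor effect. There 2 of 22 calcium handling genes, 0 of 13 regulators and 0 of 16 release genes had an unadjusted p under 0.05, against 1.47% of all genes. In FN versus MN, at an unadjusted p under 0.05, 1 regulator was higher, 1 release gene lower and 1 handling gene higher. These were 3 of 50 genes tested, or 6.0%, against 5.57% of all genes, a share near the background. They were Rrad, a small GTPase that holds high-voltage-activated channels back, at 1.84 to 2.24 CPM in MN and 3.90 to 5.87 CPM in FN (log2 difference 1.47, SE 0.56), Syt2, a calcium sensor for release, at 108 to 156 CPM and 16.6 to 80.8 CPM (-1.18, SE 0.50), and Orai1, the pore of store-operated channels (1.45, SE 0.60). Each had an adjusted p of 0.809 in edgeR. Over the 9 libraries the differences were 1.2 (SE 0.52), -0.81 (SE 0.27) and 0.16 (SE 0.19), in that order. Orai1 was at 84.0 CPM in FN replicate 2 but at 22.3 and 19.6 CPM in FN replicates 1 and 3, against 15.6 to 19.8 CPM in MN. In MT versus MN 0 of the 51 genes of the 3 lists had an unadjusted p under 0.05, against 0.426% of all genes.

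In FT versus FN 2 release genes and 1 handling gene were higher at an unadjusted p under 0.05, each with an adjusted p of 0.994 in edgeR. These were 3 of 51 genes, or 5.88%, against 3.81% of all genes. Rims1 and Rimbp2, whose products tether calcium channels at release sites, had log2 differences of 1.52 (SE 0.66) and 1.83 (SE 0.71), and Atp2b3, a calcium pump of the plasma membrane, of 1.62 (SE 0.62). All 3 had their highest value in FT replicate 2, where Rims1 was at 31.6 CPM against 4.04 to 11.7 CPM elsewhere, Rimbp2 at 5.23 CPM and Atp2b3 at 33.8 CPM. Over the 9 libraries, with FT replicate 1 alone in its group, Rims1 turned to -0.15 (SE 0.47), and Rimbp2 and Atp2b3 were at 0.93 (SE 0.71) and 0.85 (SE 0.33). In FT versus MT, 1 release gene and 3 handling genes were higher and 1 lower, with adjusted p from 0.321 to 0.399 in edgeR. These were 5 of 50 genes, or 10.0%, against 12.0% of all genes. Syt7, another calcium sensor for release, was at 155 CPM in FT replicate 2 and 26.9 to 50.4 CPM elsewhere. Of the release channels of intracellular stores, Itpr2 was at 2.74, 14.6 and 1.53 CPM in FT and 1.38 to 3.09 CPM in MT. Ryr1 was low throughout, at 1.65, 3.05 and 0.98 CPM in FT and 0.14 to 0.75 CPM in MT. Itpr3 was at 32.2, 42.2 and 34.0 CPM in FT and 16.1 to 22.8 CPM in MT (log2 difference 1.17, SE 0.35), also above MT in FT replicate 1. Orai2 was at 34.3, 20.3 and 10.6 CPM in FT and 44.7 to 49.7 CPM in MT (-0.96, SE 0.43). Over the 9 libraries Syt7 turned from 1.54 to -0.31 (SE 0.22) on the log2 scale, Itpr2 went from 1.81 to 0.27 (SE 0.55) and Ryr1 from 2.03 to 1.59 (SE 0.81), while Itpr3 was at 0.75 (SE 0.25) and Orai2 at -0.50 (SE 0.17).

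The genes most like each member were sought among 9543 genes with a mean over 10 CPM, by Pearson's r of log2 CPM over the 12 libraries. The libraries share depth and the 3 that stood apart, which weigh most in these values, and r over the 9 libraries is given beside each. For Cacna1a they were 6330407J23Rik (0.987, and 0.87 over the 9) and Wipf3 (0.985 and 0.748), and for Cacna1b Zfp763 (0.97 and 0.745). Cacna1c was most like 3110047P20Rik (0.882 and 0.773) and Tlk1 (0.88 and 0.405), Cacna1e like Inppl1 (0.911 and 0.768) and Gmeb2 (0.91 and 0.813), and Cacna1h like Dgkz (0.887 and 0.799) and Xpr1 (0.871 and 0.829). The α2δ genes were most like Spice1 (0.958 and 0.723) and Csgalnact1 (0.952 and 0.603) for Cacna2d1, Myo18a (0.989 and 0.895) and Cnot3 (0.982 and 0.796) for Cacna2d2, and Myo5a (0.954 and 0.809) and Ccdc93 (0.949 and 0.928) for Cacna2d3. Cacnb3 was nearest to Cct6a (0.968 and 0.429) and Plk1s1 (0.963 and 0.755), and Cacnb4 to Pitpnc1 (0.857 and 0.95) and C77080 (0.837 and 0.855). None of these named genes was a calcium channel gene. Among the members themselves, r of Cacna1a with Cacna2d2 was 0.803 over 12 libraries and -0.034 over the 9, and that of Cacna1b with Cacna2d3 was 0.112 and 0.77. Values over the 9 libraries thus differed widely from those over 12.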

How the data were processed

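RNA of 12 sorted samples was sequenced from SMART-seq2 libraries. According to the submitters' processing notes and the methods, the authors used CASAVA 1.8.2, TopHat2, SAMtools and HTSeq with mm9; other versions, the annotation of the counting and its strand setting are not given in the sources used here. The deposited values are whole read counts per gene symbol without normalization. Rows for reads with no gene, 76.3% to 88.8% of reads per library, were left out, and CPM were computed over the 22609 gene rows. RPKM used summed exon lengths of GENCODE M1, which held 21627 of the symbols.

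Groups came from the labels. The model of the counts was that of edgeR 4.0.16 under R 4.3.3 (TMM, filterByExpr with a minimum count of 10 and total of 15, quasi-likelihood test, two-sided, Benjamini-Hochberg adjustment) over 12 libraries and 4 groups. The model was also run on simulated data, and that outcome is not reported here. SEs were derived from the log2 difference and its F. p-values set a group difference against the spread between pooled samples, estimated over all groups in a fit. In the fit of 12 libraries that spread includes the 3 libraries that stood apart, also for MT versus MN. Genes called have an adjusted p under 0.05. Alternatives were DESeq2 1.42.0, its size factors, no filter, 10 libraries (without FN replicate 2 and FT replicate 2), 9 libraries (also without FT replicate 3), the groups compared alone, a replicate block, limma 3.58.1 voom with sample quality weights, and leaving out each library. The methods of the study used DESeq.

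The members, lists and libraries to leave out were chosen with earlier results of these data known. Named genes were the members, all other subunit genes, genes of the 3 neighbouring lists with an unadjusted p under 0.05 in a pairwise comparison, and the 2 genes most alike to each member, of which 1 is not reported here; the log2 differences printed for members were chosen after their values were seen. Other calculations used Python 3.11.15, numpy 2.4.6 and pandas 2.3.3, and figures matplotlib 3.10.9. Protein sequences were not used here.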

Additional observations from a re-analysis of the deposited data

How the results depend on the processing

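No member was called in any of the 20 alternatives, 12 of which left out 1 library each. The number of genes called was 0 in each comparison with edgeR over the 12 libraries, and moved as follows. In FN versus MN it was 20 with DESeq2, 54 with the 9 libraries and 800 with limma-voom. In MT versus MN it was 2 with DESeq2, 3 with the 9 libraries, 6 with the 2 groups alone and 47 with limma-voom. In FT versus MT it was 249 with DESeq2 and 1 with the 9 libraries. Leaving out 1 library gave 0 to 1 in FN versus MN (1 without FN replicate 1) and 0 to 748 in FT versus MT (748 without FT replicate 1). Genes with an unadjusted p under 0.05 numbered 259 to 2820 over the alternatives in FN versus MN (744 in the fit reported), 38 to 1564 in MT versus MN (59), 159 to 2261 in FT versus FN (527), 776 to 3972 in FT versus MT (1608) and 129 to 1126 in the difference between the sexes (203).

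Among the members' log2 differences printed, DESeq2, its size factors, no filter and the 2 groups alone changed no sign. Cacna1a and Cacna2d2 reversed with the libraries. In FT versus FN they were -0.11 and -0.53 with 10 libraries and -0.23 and -0.42 with 9, and Cacna2d2 was -0.24 with limma-voom, while Cacna1b became 0.1 with 9. In FT versus MT they were -0.16 and -0.41 with 10 libraries and -0.28 and -0.29 with 9, and Cacna2d2 was -0.15 with limma-voom. In the difference between the sexes Cacna2d2 was -0.43 with 10 libraries, -0.31 with 9 and -0.17 with limma-voom, and Cacna1a -0.12 with 9. Leaving out 1 library at a time gave Cacna1e in MT versus MN -0.15 to 0.92, Cacna1a -0.34 to 1.46 in FT versus FN, -0.17 to 1.63 in FT versus MT and -0.23 to 1.57 in the difference between the sexes, and Cacna2d2 -0.36 to 1.32, -0.42 to 1.26 and -0.25 to 1.43 in the same order. Cacna2d1 in FT versus MT ran from -0.68 to 0.28. The lowest values of Cacna1a and Cacna2d2 all came without FT replicate 2, and that of Cacna1e without MT replicate 3. Of all 40 pairwise member differences, 16 changed sign with 10 libraries, 15 with 9 and 14 with limma-voom. None of them was called.

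Of the other genes with printed differences, Rims1 in FT versus FN was -0.14 with 10 libraries and -0.15 with 9, and in FT versus MT Itpr2 was -0.01 with 10 and Syt7 -0.31 with 9. Leaving out 1 library gave Rims1 -0.05 to 1.94, Itpr2 -0.02 to 2.30 and Syt7 0.19 to 1.98. Past the adjusted threshold came Syt2 in FN versus MN with limma-voom (-0.83, adjusted p = 0.0233), Itpr3 in FT versus MT with DESeq2 (1.22, adjusted p = 0.0472) and Syt7 in FT versus MT with edgeR without FT replicate 1 (1.98, adjusted p = 0.043). The limma-voom fit called 800 genes in all and the fit without FT replicate 1 called 748, and the number for DESeq2 is given above. Without FT replicate 1, FT is left to replicates 2 and 3, which stood apart, with Syt7 at 155 and 44.1 CPM.

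Replicate numbers are shared by the groups, and whether they pair the samples was not settled. Deviations of same-numbered libraries from their group means correlated at -0.352 to 0.571. This cannot decide the question, since libraries with different numbers were not compared. With a replicate block edgeR called 0 genes in each comparison, and Cacna1b in FT versus MT was -0.88. The high-multimapping libraries, the 22 to 194 reads of Cacna1e and 3 pooled samples a group limit what can be detected.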
